A study of Homo sapiens with 9 samples.

Results

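The genes described here are core regulators of the G1 phase of the cell cycle: the D cyclins CCND1, CCND2 and CCND3, the kinases CDK4 and CDK6, the Cip/Kip inhibitors CDKN1A, CDKN1B and CDKN1C, and the INK4 inhibitors CDKN2C and CDKN2D. They were chosen by name as a family, with earlier results of these data known but with no rule on their values, and are 10 of the 60676 genes in the count table. Their RNA was measured in A549, an established line of human lung adenocarcinoma, that carried the lentiviral hairpin shLITATS1-1, the lentiviral hairpin shLITATS1-2 or the non-targeting control hairpin shNT, with 3 libraries for each hairpin and 9 in all. shLITATS1-1 and shLITATS1-2 are separate hairpins against the long noncoding RNA LITATS1. All groups were grown for 2 days after an overnight transduction, put under puromycin and taken 3 days later, so the control cells went through the same virus and drug. The series design calls the libraries biological replicates, and the labels name no separate transductions. The p-values thus take in the spread among the 9 libraries and nothing beyond it, and that spread may be technical.

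D cyclins bind and activate CDK4 and CDK6. The active kinases phosphorylate the retinoblastoma protein RB1, which then releases E2F transcription factors, and E2F factors switch on cyclin E and the genes of DNA replication. INK4 proteins bind CDK4 and CDK6 and keep D cyclins off them, whereas Cip/Kip proteins inhibit the CDK2 complexes of cyclins E and A and also bind cyclin D complexes, whose assembly they can help.

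The libraries held 24556848 to 24671296 fragments each, and 19610514 to 19989652 of them fell in genes. LITATS1 (ENSG00000233621), the targeted RNA, had 72, 61 and 57 fragments with shLITATS1-1 and 69, 63 and 56 with shLITATS1-2, against 274, 283 and 328 with shNT. Both hairpin groups lay wholly below the control group, as their labels say. Summed over 6 epithelial markers, which include EPCAM and the keratins KRT8, KRT18 and KRT19, the level was 7508 to 7614 CPM (counts scaled to the size of the library) with shLITATS1-1, 3773 to 4025 with shLITATS1-2 and 4203 to 4406 with shNT. Most of it was KRT8, at means of 5231.2, 2754 and 3031.5 CPM in that order, and KRT18, at 2180, 961 and 1150. KRT19, at 110, 162 and 81.0 CPM, and CLDN4, at 17.1, 18.2 and 3.89, were lowest with shNT. CDH1 had 33.7, 26.0 and 35.9 CPM, and EPCAM 4.91, 4.49 and 4.22. The summed levels of 6 fibroblast markers were 5.42 to 5.83, 2.03 to 2.40 and 2.91 to 3.54 CPM in the same order of groups. Among them LUM was highest with shLITATS1-1, at means of 3.59, 0.545 and 0.461 CPM. THY1 was highest with shNT, at 1.12, 0.930 and 2.29 CPM. The summed levels of 4 endothelial markers were 0.105 to 0.211, 0.241 to 0.816 and 0.307 to 0.869 CPM. The 5 immune markers summed to 1.89 to 3.05, 5.04 to 6.08 and 1.23 to 1.64 CPM, nearly all of it CD14, while CD3E was at 0 in every library and PTPRC had 1 fragment in all. Mitochondrial genes took 10.2% ± 0.123 of gene fragments with shLITATS1-1, 7.97% ± 0.235 with shLITATS1-2 and 12.2% ± 0.224 with shNT (SD, n = 3 each). The part of these markers and shares in the results below was not tested.

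Of the 10 G1 regulators, 9 had enough fragments to be tested. CCND1, CDK6, CDKN1A and CDKN1B were higher with both LITATS1 hairpins than with shNT, and CDK4 and CDKN2C were lower with both. CDKN2D fell with shLITATS1-1 and rose with shLITATS1-2. CCND3 and CDKN1C passed the test against shNT with shLITATS1-2, CCND3 lower and CDKN1C higher, and did not pass it with shLITATS1-1. Both contrasts use the same 3 shNT libraries, so they are not independent of each other. By the quasi-likelihood test of edgeR, with p-values adjusted by Benjamini and Hochberg's method over 15500 genes and a threshold of 0.05, 4 members were higher and 3 lower with shLITATS1-1, and 6 were higher and 3 lower with shLITATS1-2. The background was high: 61% of all tested genes passed with shLITATS1-1, 30.5% higher and 30.5% lower, and 56.7% passed with shLITATS1-2, 27.8% higher and 28.9% lower. Between the hairpins 5 members were higher and 3 lower with shLITATS1-1 than with shLITATS1-2, where 60.9% of all genes passed, 30.2% higher and 30.7% lower. The median log2 fold change of the 9 members was 0.01 with shLITATS1-1 and 0.47 with shLITATS1-2, against -0.0070 and -0.0040 over all tested genes, and between the hairpins it was 0.19, against -0.01. Since most tested genes passed, the number of members that passed is not a result about them, and the sizes of their changes are given below. Among genes that passed, the median absolute log2 fold change was 0.41 with shLITATS1-1 and 0.38 with shLITATS1-2 against shNT, and 0.41 between the hairpins.

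**Figure D1:**
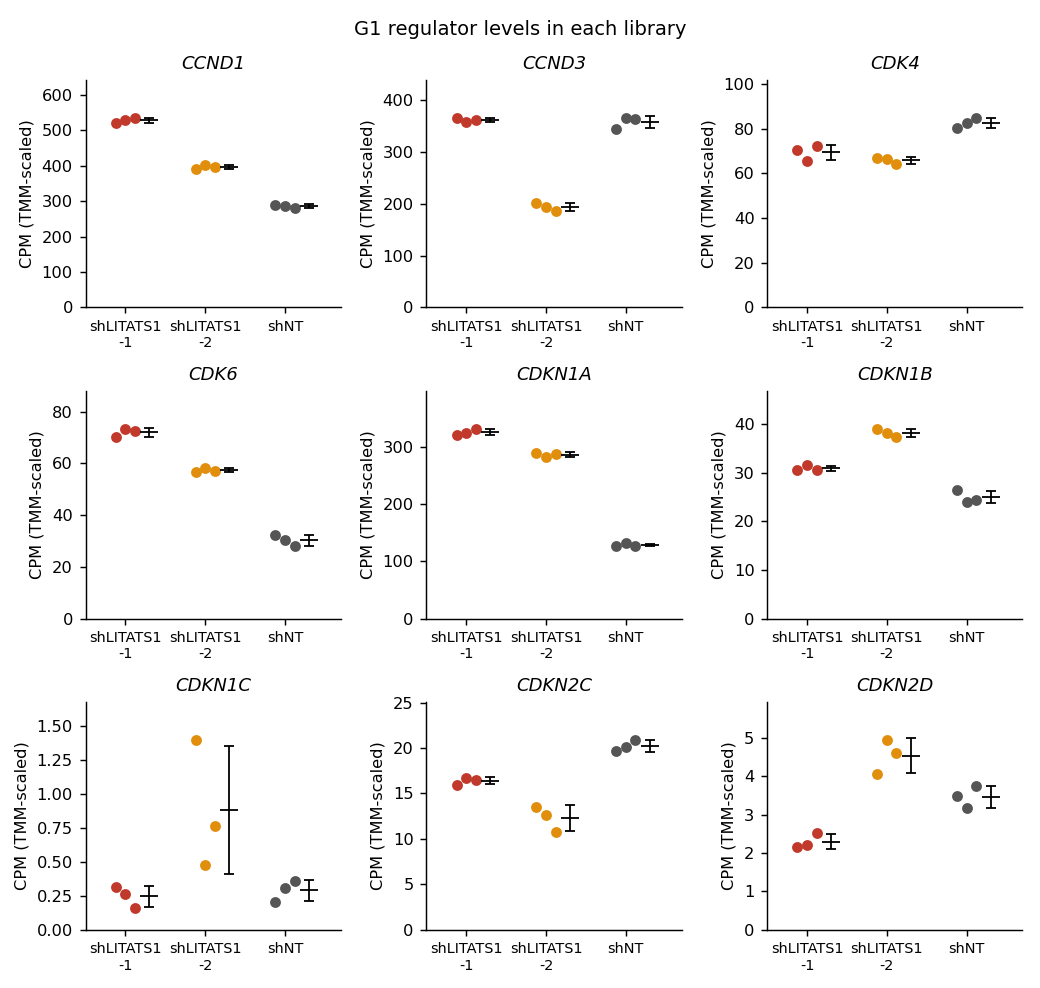
Level of 9 G1 regulators in each library, in TMM-scaled CPM on linear axes that start at 0. Points are libraries, and bars beside them give the mean ± SD of the 3 libraries of shLITATS1-1, shLITATS1-2 and shNT. CDKN1A and CDK6 stand well above shNT with both hairpins, whereas CCND3 stands apart with shLITATS1-2 alone, at 187 to 202 CPM.

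The scaling between libraries matters for part of these values. The main values use TMM factors, which assume that most genes do not differ. With library size alone the median gene moved by 0.11 on the log2 scale for shLITATS1-2 against shNT and by -0.13 for shLITATS1-1 against shLITATS1-2, but by -0.02 for shLITATS1-1 against shNT. The split of genes higher and lower then became 6054 and 2968 with shLITATS1-2 against shNT, in place of 4302 and 4485, and 3293 and 6911 between the hairpins, in place of 4684 and 4755. No member that passed against shNT lost its call or changed direction under that scaling. These are also bulk measurements, in which more cells in a given phase of the cycle and more RNA per cell cannot be told apart.

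CCND1 and CCND3 were the D cyclins of these cells, and they responded differently to the hairpins. CCND1 (ENSG00000110092, chromosome 11 from 69641087 to 69654474 on the plus strand of GRCh38), which encodes cyclin D1, stood at 520, 528 and 535 CPM with shLITATS1-1 and 391, 402 and 397 CPM with shLITATS1-2, against 290, 286 and 281 CPM with shNT. The 3 groups formed 3 separate levels with no overlap. CCND1 was 1.85-fold higher with shLITATS1-1 than with shNT (log2 fold change 0.89, SE 0.029, adjusted p = 8.43e-39) and 1.39-fold higher with shLITATS1-2 (0.47, SE 0.030, adjusted p = 2.68e-23). The hairpins also differed from each other, with 1.33-fold more CCND1 under shLITATS1-1 (log2 0.41, SE 0.029, adjusted p = 6.83e-21). CCND1 shares 10.3% of its exon bases with LTO1 on the opposite strand. Whether the counting used strand is not given in the sources used here, and without it fragments of both genes cannot be told apart there. LTO1 itself had log2 fold changes of -0.03 with shLITATS1-1 and -0.04 with shLITATS1-2, neither past the test.

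CCND3 (ENSG00000112576, chromosome 6 from 41934933 to 42050357, minus strand), which encodes cyclin D3, had 366, 358 and 361 CPM with shLITATS1-1 and 202, 195 and 187 CPM with shLITATS1-2, against 346, 367 and 364 CPM with shNT. The shLITATS1-1 libraries lay within the range of the shNT libraries, and the shLITATS1-2 libraries lay far below both. The fold of shLITATS1-2 over shNT was 0.542 (log2 -0.88, SE 0.032, adjusted p = 1.02e-36). With shLITATS1-1 the log2 fold change was 0.01 (SE 0.031, adjusted p = 0.727), with a 95% interval of -0.05 to 0.07, so a change of the size seen with shLITATS1-2 lay outside it. The test of the difference between the hairpins gave a log2 fold change of 0.90 (SE 0.032, adjusted p = 3.35e-37), or 1.86-fold more CCND3 with shLITATS1-1.

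CCND2 (ENSG00000118971, chromosome 12 from 4273772 to 4305350, plus strand), which encodes cyclin D2, was at or near 0. It had 1, 1 and 0 fragments with shLITATS1-1 and none with shLITATS1-2, against 1, 0 and 1 with shNT. All these values lie below 3 fragments, a limit that comes to 0.15 to 0.153 CPM depending on the library, so no difference was detectable at this depth and the gene was not tested.

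Among the kinases, CDK6 rose with both hairpins while CDK4 fell. CDK6 (ENSG00000105810, chromosome 7 from 92604921 to 92836594, minus strand) had 70.1, 73.4 and 72.7 CPM with shLITATS1-1 and 56.5, 58.1 and 57.2 CPM with shLITATS1-2, against 32.1, 30.5 and 28.0 CPM with shNT. The groups did not overlap, and both hairpin groups stood far above the control. The rise was 2.38-fold with shLITATS1-1 (log2 1.25, SE 0.050, adjusted p = 2.35e-34) and 1.90-fold with shLITATS1-2 (log2 0.92, SE 0.051, adjusted p = 2.82e-26). Between the hairpins the log2 difference was 0.33 (SE 0.045, adjusted p = 1.33e-09), which became 0.20 with library size alone and still passed.

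CDK4 (ENSG00000135446, chromosome 12 from 57747727 to 57756013, minus strand) moved little by comparison. It had 70.4, 65.6 and 72.0 CPM with shLITATS1-1 and 67.0, 66.2 and 64.0 CPM with shLITATS1-2, against 80.3, 82.5 and 84.8 CPM with shNT. Every hairpin library lay below every shNT library, and the hairpin groups overlapped each other. The log2 fold change was -0.25 with shLITATS1-1 (SE 0.042, adjusted p = 3.40e-07) and -0.33 with shLITATS1-2 (SE 0.042, adjusted p = 2.50e-10), and the value with shLITATS1-2 was -0.22 with library size alone. The hairpins did not differ past the threshold (log2 0.08, SE 0.043, adjusted p = 0.113), with a 95% interval of -0.0083 to 0.16. That value was -0.05 with library size alone, and it passed without shLITATS1-1 replicate 2 (log2 0.12, adjusted p = 0.0315). CDK4 shares 43.2% of its exon bases with TSPAN31 on the opposite strand. TSPAN31 had a log2 fold change of -0.23 with shLITATS1-1 (adjusted p = 0.00402) and of 0.04 with shLITATS1-2 (adjusted p = 0.660), and the part of shared fragments in the CDK4 values was not tested.

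CDKN1A and CDKN1B, the expressed Cip/Kip inhibitors, rose with both hairpins. CDKN1A (ENSG00000124762, chromosome 6 from 36676460 to 36687339, plus strand) encodes p21, an inhibitor of CDK2 complexes. It had 322, 325 and 332 CPM with shLITATS1-1 and 290, 283 and 288 CPM with shLITATS1-2, against 128, 132 and 128 CPM with shNT. The groups did not overlap, and both hairpin groups stood far above the control with little spread among libraries. The rise was 2.53-fold with shLITATS1-1 (log2 1.34, SE 0.032, adjusted p = 1.91e-47) and 2.22-fold with shLITATS1-2 (log2 1.15, SE 0.032, adjusted p = 2.38e-43). Between the hairpins the log2 difference of 0.19 passed the test (SE 0.030, adjusted p = 1.66e-07), but it was 0.05 with library size alone (adjusted p = 0.103), so the order of the hairpins at this gene depends on the scaling. DINOL, a transcript on the opposite strand that shares 4.79% of the exon bases of CDKN1A, had no fragment in any library.

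CDKN1B (ENSG00000111276, chromosome 12 from 12715058 to 12722371, plus strand) encodes p27, an inhibitor best known for its control by protein turnover. It had 30.6, 31.5 and 30.5 CPM with shLITATS1-1 and 39.0, 38.1 and 37.4 CPM with shLITATS1-2, against 26.4, 24.0 and 24.4 CPM with shNT. The 3 groups did not overlap, and here shLITATS1-2 stood highest. The log2 fold change was 0.31 with shLITATS1-1 (SE 0.059, adjusted p = 6.34e-06) and 0.61 with shLITATS1-2 (SE 0.056, adjusted p = 1.81e-15), and the hairpins differed by -0.31 (SE 0.055, adjusted p = 1.49e-06). CDKN1B shares no exon bases with another gene in GENCODE 29.

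CDKN1C (ENSG00000129757, chromosome 11 from 2883213 to 2885773, minus strand) encodes p57, the imprinted member of the Cip/Kip family, and was barely expressed. It had 6, 5 and 3 fragments with shLITATS1-1 and 29, 10 and 16 with shLITATS1-2, against 4, 6 and 7 with shNT. The shLITATS1-2 libraries lay above all others but spread widely. The log2 fold change with shLITATS1-2 was 1.58 (SE 0.41, adjusted p = 0.000542), and it was 1.09 (adjusted p = 0.0424) without shLITATS1-2 replicate 1. With shLITATS1-1 it was -0.24 (SE 0.56, adjusted p = 0.731), with a 95% interval of -1.37 to 0.88, and between the hairpins it was -1.82 (SE 0.43, adjusted p = 0.000142). The gene passed the filter on low counts through the shLITATS1-2 libraries, so that it had to differ, and its call adds no support to the counts above.

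Promoter sequences are shown for CDKN1A and CDK6, which had the largest log2 fold changes among the members higher with both hairpins. They come from RefSeq on GRCh38.p14, run 5′ to 3′ on the strand of the gene and hold no bases of its exons in GENCODE 29. The windows are chr6:36678464-36678657 on the plus strand for CDKN1A and chr7:92836595-92836823 on the minus strand for CDK6. The CDKN1A window lies inside the gene as GENCODE 29 annotates it, from 36676460, so it is not the sequence before its first exon there. Capitals mark GC boxes, the motif GGGCGG or CCGCCC on the other strand, which is bound by SP1 and related factors.
CDKN1A: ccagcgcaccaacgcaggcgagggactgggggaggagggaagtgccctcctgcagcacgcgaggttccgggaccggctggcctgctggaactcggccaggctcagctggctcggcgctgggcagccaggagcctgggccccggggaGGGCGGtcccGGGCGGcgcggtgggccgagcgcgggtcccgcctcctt
CDK6: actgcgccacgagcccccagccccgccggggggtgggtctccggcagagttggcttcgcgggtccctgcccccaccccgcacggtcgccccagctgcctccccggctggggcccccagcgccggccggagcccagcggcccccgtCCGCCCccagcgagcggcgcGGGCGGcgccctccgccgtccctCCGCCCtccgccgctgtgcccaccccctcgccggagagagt
Both runs are rich in G and C, at 76.8% for CDKN1A and 82.1% for CDK6, against a median of 58.0% over all promoter windows of the table. The CDKN1A run holds 2 of the 4 GC boxes of its full window of 250 bases before the RefSeq start, and the CDK6 run holds all 3 of its own. RefSeq promoters were found for 7 of the 10 members, in 12 windows of 250 bases. A GC box was in 9 of these 12 windows, with at least 1 window in each of the 7 genes, against 42.6% of 35116 windows of that length. The TATA motif TATAAA was in 0 of 12 windows, against 10.7% of all windows, and the AP-1 motif TGANTCA was in 0 of 12, against 6.57%. The E2F motif TTTNNCGC was in 1 window, that of CDKN2D, against 5.92% of all windows. Each motif was searched on both strands and on its own, whether or not it overlapped another, and a match is only a description of these letters.

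The INK4 inhibitors among the members, CDKN2C and CDKN2D, had the lowest summed TPM of the classes. INK4 genes outside the members were not summed. Both members fell with shLITATS1-1, and with shLITATS1-2 CDKN2C fell while CDKN2D was higher by a call that some alternatives lose. CDKN2C (ENSG00000123080, chromosome 1 from 50960745 to 50974633, plus strand), which encodes p18, had 16.0, 16.7 and 16.5 CPM with shLITATS1-1 and 13.5, 12.6 and 10.8 CPM with shLITATS1-2, against 19.7, 20.1 and 20.9 CPM with shNT. The groups did not overlap, and the level was lowest with shLITATS1-2. The log2 fold change was -0.30 with shLITATS1-1 (SE 0.073, adjusted p = 0.000260) and -0.72 with shLITATS1-2 (SE 0.076, adjusted p = 4.77e-13), and the hairpins differed by 0.42 (SE 0.079, adjusted p = 5.70e-06).

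CDKN2D (ENSG00000129355, chromosome 19 from 10566462 to 10569059, minus strand), which encodes p19, had 41, 42 and 48 fragments with shLITATS1-1 and 84, 103 and 96 with shLITATS1-2, against 68, 62 and 73 with shNT. The control libraries lay between the hairpin groups, with no overlap. The log2 fold change was -0.59 with shLITATS1-1 (SE 0.17, adjusted p = 0.00155) and 0.39 with shLITATS1-2 (SE 0.14, adjusted p = 0.0155). The difference between the hairpins was -0.98 (SE 0.16, adjusted p = 1.05e-07). The rise with shLITATS1-2 did not pass without shLITATS1-2 replicate 2 (log2 0.32, adjusted p = 0.0865), without shNT replicate 2 (log2 0.33, adjusted p = 0.0765) or in DESeq2 (log2 0.39, adjusted p = 0.111). The fall with shLITATS1-1 and the difference between the hairpins passed under every alternative run.

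**Figure D2:**
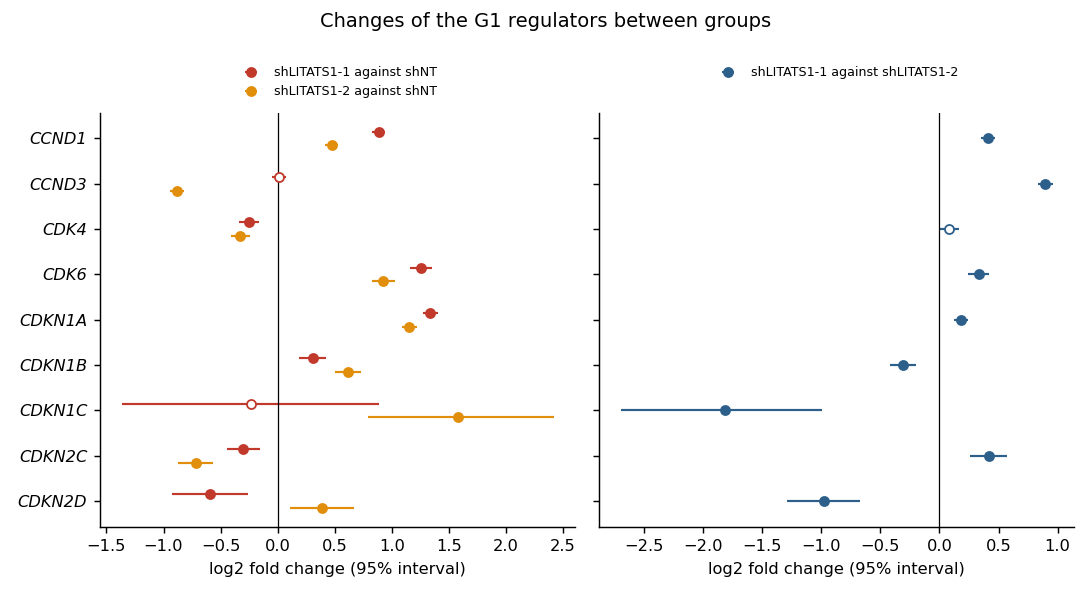
Log2 fold change of 9 G1 regulators with its 95% interval, for shLITATS1-1 against shNT and shLITATS1-2 against shNT on the left and for shLITATS1-1 against shLITATS1-2 on the right. Filled points passed the test and open points did not. CDKN1A and CDK6 lie farthest to the right among the well expressed members with both hairpins, CCND3 and CDKN2D separate the hairpins, and the interval of CDKN1C is the widest.

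To compare levels between genes, fragments were divided by exon length and given as TPM. This length-corrected unit sums to the same total in each library and takes no TMM factor. Differences between groups in TPM are therefore not on the scale of the tests. CDK4, for example, had 68.3 TPM with shLITATS1-1 and 73.9 TPM with shLITATS1-2, but 69.35 and 65.74 CPM. With shLITATS1-1 the leading members were CCND1 at 341 ± 5.01 TPM and CDKN1A at 334 ± 5.75 TPM (SD, n = 3 each), whose libraries overlapped, followed by CCND3 at 195 ± 2.33 TPM. With shLITATS1-2 the order was CDKN1A at 335 ± 4.07 TPM, CCND1 at 293 ± 4.96 TPM and CCND3 at 119 ± 4.16 TPM, with no overlap. With shNT it was CCND3 at 184 ± 5.57 TPM and CCND1 at 176 ± 3.65 TPM, whose libraries overlapped, then CDKN1A at 126 ± 2.56 TPM. By these lengths CDKN1A thus stood below both D cyclins in control cells and beside or above them with the hairpins. CDK4, at 68.3, 73.9 and 77.5 TPM with shLITATS1-1, shLITATS1-2 and shNT, came next in all groups. CDKN1B followed, at 34.2, 48.4 and 26.4 TPM. CDK6, at 18.3, 16.7 and 7.33 TPM, came after CDKN1B with both LITATS1 hairpins, where it stood above CDKN2C at 15.4 and 13.2 TPM. With shNT it was below CDKN2C, at 18.1 TPM, and its libraries overlapped those of CDKN2D at 6.86 TPM. With shLITATS1-2 the libraries of CDKN2C and of CDKN2D, at 10.8 TPM, overlapped. CDKN2D had 4.77 TPM with shLITATS1-1, and CDKN1C and CCND2 came last in every group.

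Summed over each class, the D cyclins came to 536 ± 4.81 TPM with shLITATS1-1 and 412 ± 3.93 TPM with shLITATS1-2, against 360 ± 4.42 TPM with shNT (SD, n = 3 each). The Cip/Kip inhibitors came to 368 ± 5.50 and 385 ± 4.85 TPM with the LITATS1 hairpins in that order, against 153 ± 2.29 TPM with shNT. By these lengths the libraries of shNT lay below those of both hairpins in both classes. With the longest transcript as gene length, the D cyclin sum of shNT instead lay above that of shLITATS1-2. CCND1 and CCND3 then had means of 155 and 351 TPM with shNT, against 250 and 221 TPM with shLITATS1-2. CDK4 and CDK6 together came to 86.6 ± 3.27, 90.6 ± 1.48 and 84.9 ± 1.33 TPM with shLITATS1-1, shLITATS1-2 and shNT, so their sum differed far less than their makeup. CDK6 made up 21.2% ± 1.07 of it with shLITATS1-1 and 18.4% ± 0.428 with shLITATS1-2, against 8.65% ± 0.764 with shNT. CDK4 shares 43.2% of its exon bases with TSPAN31, and its length was not corrected for them. What this did to the CDK4 values in TPM, to the sum and to the CDK6 share was not tested. The INK4 inhibitors CDKN2C and CDKN2D summed to 20.2 ± 0.654, 24.0 ± 1.38 and 25.0 ± 0.907 TPM with shLITATS1-1, shLITATS1-2 and shNT. Within the D cyclins CCND1 took 63.7% ± 0.503 with shLITATS1-1 and 71.0% ± 0.983 with shLITATS1-2, against 48.9% ± 1.15 with shNT. Cip/Kip RNA per D cyclin RNA was 0.688 ± 0.0054 with shLITATS1-1 and 0.935 ± 0.020 with shLITATS1-2, against 0.424 ± 0.0044 with shNT. All these shares kept the same order of groups when the longest transcript replaced the union of exons as gene length but their values moved. The exons of CCND3, for example, span 5802 bases in union and 2394 in its longest transcript, and with that second length CCND3 led CCND1 with shLITATS1-1 too, at 365 against 296 TPM, and also led CDKN1A there, at 348 TPM. These sums are descriptions in TPM, without TMM factors, and were not tested.

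**Figure D3:**
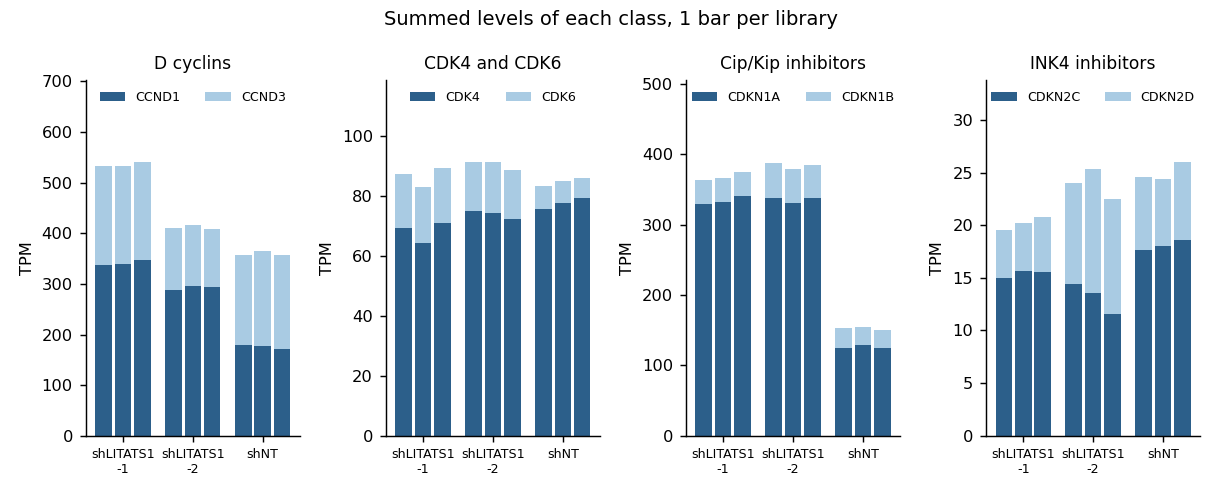
Summed level of each class of G1 regulators in TPM, on linear axes that start at 0, with 1 bar per library and 3 bars each for shLITATS1-1, shLITATS1-2 and shNT. Colours split a bar by gene, and CCND2 and CDKN1C are too low to show. The Cip/Kip bars reach 364 to 389 TPM with the LITATS1 hairpins and 150 to 155 TPM with shNT, while the CDK4 and CDK6 bars stay between 83.1 and 91.5 TPM.

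Downstream of the members, RB1, its relatives and the E2F factors mostly fell with shLITATS1-2. Of 13 genes in this list, all tested, 2 were higher, 6 lower and 5 did not pass with shLITATS1-1 (median log2 fold change -0.07), and 1 was higher, 10 lower and 2 did not pass with shLITATS1-2 (median -0.30). The shares over all tested genes were 30.5% higher and 30.5% lower with shLITATS1-1, and 27.8% higher and 28.9% lower with shLITATS1-2. RB1 itself had a log2 fold change of -0.04 (SE 0.041, adjusted p = 0.414) with shLITATS1-1 and fell by 0.36 with shLITATS1-2 (SE 0.042, adjusted p = 1.10e-11). The hairpins differed at RB1 by 0.32 (adjusted p = 5.28e-10). RBL1, which encodes the RB1 relative p107, fell by 0.55 with shLITATS1-1 and by 0.59 with shLITATS1-2 on the log2 scale. The activator E2F1 had log2 fold changes of -0.77 with shLITATS1-1 and -0.30 with shLITATS1-2, and E2F2 had -1.16 with shLITATS1-1 and -0.55 with shLITATS1-2, all past the test. E2F3, the remaining activator, rose by 0.27 with shLITATS1-1 and fell by 0.46 with shLITATS1-2. With library size alone 8 in place of 10 genes of the list were lower with shLITATS1-2.

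The cyclins and kinases that act after the D cyclins were mostly lower with both hairpins, while the cyclin E gene CCNE1 was higher with both. Of 17 tested genes of 18, 2 were higher, 14 lower and 1 did not pass with shLITATS1-1 (median log2 fold change -0.48), and 3 were higher, 11 lower and 3 did not pass with shLITATS1-2 (median -0.36). Among all tested genes 30.5% were higher and 30.5% lower with shLITATS1-1, and 27.8% higher and 28.9% lower with shLITATS1-2. With library size alone 5 genes of the list were higher and 11 lower with shLITATS1-2 (median -0.25). CCNE1, a cyclin of CDK2, had 68.2, 67.9 and 68.7 CPM with shLITATS1-1 and 60.1, 57.5 and 61.4 CPM with shLITATS1-2, against 51.7, 53.2 and 53.3 CPM with shNT. The groups did not overlap, and CCNE1 rose by 0.37 with shLITATS1-1 (SE 0.044, adjusted p = 2.12e-11) and by 0.18 with shLITATS1-2 (SE 0.044, adjusted p = 0.000418) on the log2 scale. CCNE2 rose by 0.44 with shLITATS1-1 (adjusted p = 0.000131) and had -0.16 with shLITATS1-2 (adjusted p = 0.214). With shLITATS1-2 the other genes that rose were CDC25B, a phosphatase that activates CDKs, by 0.34 (adjusted p = 4.07e-17) and CDK7, the kinase that activates CDKs, by 0.14 (adjusted p = 0.0137). CDC25B fell by 0.35 with shLITATS1-1, and CDK7 had 0.02 there, not past the test. CDK2, the kinase partner of cyclin E, fell by 0.48 with shLITATS1-1 and by 0.39 with shLITATS1-2. The S phase cyclin CCNA2 fell by 1.05 with shLITATS1-1 and by 0.40 with shLITATS1-2, and the mitotic cyclin CCNB1 fell by 1.18 and by 0.81. The hairpins differed by -0.65 at CCNA2 (adjusted p = 1.15e-18) and by -0.37 at CCNB1 (adjusted p = 2.60e-13). CKS1B, a CDK subunit that also serves SKP2 in the turnover of p27, fell by 1.06 with shLITATS1-1 and by 0.77 with shLITATS1-2.

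The DREAM and MuvB genes, whose complexes repress cell cycle genes in quiescence and activate them with MYBL2 and FOXM1 in later phases, held no gene that rose. Of 9 tested genes, 7 fell with shLITATS1-1 (median log2 fold change -0.35) and 6 with shLITATS1-2 (median -0.19), but with library size alone 2 were higher and 4 lower with shLITATS1-2. Lower genes made up 30.5% of all tested genes with shLITATS1-1 and 28.9% with shLITATS1-2 in the main test. MYBL2 fell by 0.93 and FOXM1 by 0.88 with shLITATS1-1, and they fell by 0.74 and 0.82 with shLITATS1-2. The core subunit LIN9 fell by 0.61 with shLITATS1-1 and by 0.57 with shLITATS1-2.

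Genes for the turnover of D cyclins and Cip/Kip proteins showed no common direction. Of 18 tested genes, 8 were higher, 5 lower and 5 did not pass with shLITATS1-1 (median log2 fold change 0.08), and 5 were higher, 5 lower and 8 did not pass with shLITATS1-2 (median -0.04). With library size alone 7 were higher and 3 lower with shLITATS1-2. In the main test 30.5% of all genes were higher and 30.5% lower with shLITATS1-1, and 27.8% higher and 28.9% lower with shLITATS1-2. The counts are thus not a result about the turnover genes. SKP2, the F-box protein that marks p27 for destruction, had 10.3, 13.5 and 11.6 CPM with shLITATS1-1 and 29.7, 33.2 and 32.1 CPM with shLITATS1-2, against 25.1, 24.3 and 22.2 CPM with shNT. The control libraries lay between the hairpin groups, with no overlap, as for CDKN2D. SKP2 had a log2 fold change of -1.01 with shLITATS1-1 (SE 0.078, adjusted p = 7.57e-19) and of 0.41 with shLITATS1-2 (SE 0.064, adjusted p = 7.98e-08), and the hairpins differed by -1.43 (SE 0.073, adjusted p = 1.89e-27). FBXO4 and FBXW8, F-box proteins described as ligase subunits for cyclin D1, rose by 0.71 and 0.68 with shLITATS1-1 and had -0.18 and 0.12 with shLITATS1-2, neither past the test. The hairpins differed by 0.90 at FBXO4 (adjusted p = 6.97e-14) and by 0.56 at FBXW8 (adjusted p = 7.99e-12). AMBRA1, a ligase subunit for all D cyclins, rose by 0.21 with shLITATS1-1 and by 0.24 with shLITATS1-2, and FBXW7, which marks cyclin E, by 0.49 and 0.52. DTL, which directs p21 to destruction in S phase, fell by 0.39 with shLITATS1-1 and by 0.54 with shLITATS1-2.

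Among transcription factors known to act on the CDK inhibitors and D cyclins, TP63, MXD1, JUN and FOXO1 rose with both hairpins. Of 21 tested genes of 22, 8 were higher, 5 lower and 8 did not pass with shLITATS1-1 (median log2 fold change 0.05), and 12 were higher, 5 lower and 4 did not pass with shLITATS1-2 (median 0.26). Against these counts stand shares over all genes of 30.5% higher and 30.5% lower with shLITATS1-1, and 27.8% higher and 28.9% lower with shLITATS1-2. With library size alone 15 genes of the list were higher and 4 lower with shLITATS1-2 (median 0.37). TP63, a transcription factor that marks squamous and basal cells, had 16.9, 19.5 and 20.3 CPM with shLITATS1-1 and 7.04, 7.69 and 8.69 CPM with shLITATS1-2, against 3.07, 2.71 and 3.59 CPM with shNT. It held the largest change of the list with each hairpin, at 2.60 with shLITATS1-1 (SE 0.11, adjusted p = 9.27e-33) and 1.32 with shLITATS1-2 (SE 0.13, adjusted p = 2.14e-14). MXD1, a MAX partner that opposes MYC, rose by 1.47 with shLITATS1-1 and by 1.19 with shLITATS1-2, and JUN, an AP-1 subunit, by 0.51 and 0.52. MYC, which represses CDKN1A and CDKN1B, changed little, at -0.10 with shLITATS1-1 and -0.14 with shLITATS1-2, both past the test. With library size alone, the MYC value with shLITATS1-2 did not pass. FOXO1, an activator of CDKN1B, rose by 0.49 with shLITATS1-1 and by 0.59 with shLITATS1-2. Its relative FOXO3 had -0.0098 with shLITATS1-1 (adjusted p = 0.911) and fell by 0.74 with shLITATS1-2. SP1, a factor that binds GC boxes such as those shown above, fell by 0.12 with shLITATS1-1 and by 0.44 with shLITATS1-2. SP3, in the same list, rose by 0.095 with shLITATS1-1 (adjusted p = 0.0329) and by 0.15 with shLITATS1-2 (adjusted p = 0.000662). With library size alone its value with shLITATS1-1 did not pass. Binding to these promoters was not measured.

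**Figure D4:**
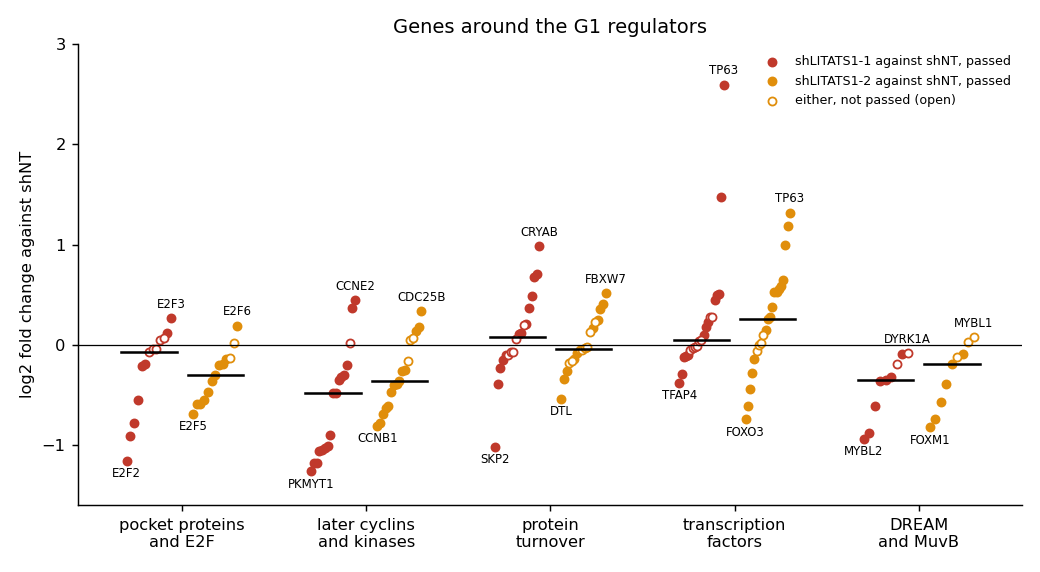
Log2 fold change against shNT of every tested gene in 5 lists around the G1 regulators, with shLITATS1-1 on the left and shLITATS1-2 on the right of each list. Filled points passed the test, open points did not, and horizontal bars are the medians of the lists. The medians of the later cyclins and kinases lie at -0.48 with shLITATS1-1 and -0.36 with shLITATS1-2, and SKP2 is the lowest turnover gene with shLITATS1-1.

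For each tested member, the gene with the most similar pattern over the 9 libraries was sought among 12300 genes whose log2 CPM averaged at least 1, by the root mean square difference of centred log2 CPM. CCND1 was nearest to CDYL, at 0.0253, followed by NEFL at 0.0347, whereas the spread of CCND1 itself over the libraries was 0.362. CDYL had log2 fold changes of 0.84 with shLITATS1-1 and 0.43 with shLITATS1-2, close to those of CCND1. CCND3 was nearest to MED24 at 0.038, CDK4 to PSMC2 at 0.0285 and CDK6 to LRP1 at 0.0673. CDKN1A was nearest to EFR3B at 0.0537, CDKN1B to PTK2B at 0.0291, CDKN2C to FTH1 at 0.054 and CDKN2D to CTBP1-DT at 0.0772. CDKN1C was nearest to RASD2 but only at 0.346, a much looser match that goes with its low counts. No member was among the 2 nearest genes of another.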

How the data were processed

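RNA was sequenced from 9 libraries of A549 cells, with group and replicate taken from each title. The authors deposited 1 table of counts, in fragments for each gene, with no normalization. Per the submitters' processing notes, the build was GRCh38 and the tools were HTSeq 0.12.4, STAR 2.7.5a, cutadapt 2.10 and FastQC. Neither strand setting nor annotation release is given in the sources used here. Lines of the counter without a gene stayed out of all sizes and tests: ambiguous fragments were 10.2%, 10.3% and 10.8% of all fragments with shLITATS1-1, shLITATS1-2 and shNT, unaligned ones 5.56%, 5.43% and 3.79%, those outside features 2.49%, 2.52% and 2.33%, multiply aligned ones 1.88%, 1.86% and 2.11%, and low-quality ones 0.00679%, 0.00775% and 0.00733%. Replicate pairs differed by more than sampling noise, with a chi-square per degree of freedom of 1.47 to 2.72.

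From these counts, filterByExpr of edgeR (minimum count 10) kept 15500 of 60676 genes, CCND2 not among them. All libraries entered 1 quasi-likelihood fit with TMM scaling, tested two-sided with Benjamini-Hochberg adjustment over all tested genes and a threshold of 0.05. The biological coefficient of variation was 2.71% with 6 residual degrees of freedom, so small changes could pass. CPM values are TMM-scaled. TPM used the union of exons in GENCODE 29, matched for 58503 identifiers, and symbols were matched for 60357. Limits from low fragment counts cover counting error only. Same-numbered libraries did not deviate together, so no pairing was used. The procedure was tested on simulated data.

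The members and gene lists were chosen with earlier results of these data known. All members were named whatever their values. So could be the genes of the pathway and marker lists, overlapping genes and the 2 nearest genes in pattern, though some listed genes are not reported here. Promoters came from RefSeq on GRCh38.p14. Alternatives were DESeq2, DESeq2's size factors, library size alone, a minimum count of 50 or no filter, a block for the replicate number, a fit to the 6 libraries of a comparison alone, a stricter threshold of 0.01, each library left out in turn, and the longest transcript as gene length. The tools were R 4.3.3, edgeR 4.0.16, DESeq2 1.42.0, Python 3.11.15, numpy 2.4.6, pandas 2.3.3 and matplotlib 3.10.9.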

Additional observations from a re-analysis of the deposited data

How the results depend on the processing

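Over 17 alternatives, 454 recomputed changes of single members kept direction and side of the threshold in 445 cases, and 23 of 27 changes did so throughout. Scaling by library size alone turned the direction of CCND3 with shLITATS1-1 against shNT to -0.0049, as did leaving out shNT replicate 1 (-0.0083, with up to 0.028 without another library), and turned CDK4 between the hairpins to -0.054, none past the test. The other exceptions, for CDKN2D, CDKN1A and CDK4, stand beside their values in the report, and at the threshold of 0.01 the rise of CDKN2D with shLITATS1-2 was lost as well. The cause was not tested. Without 1 library at a time, 8848 to 9612 genes passed with shLITATS1-1 against shNT, 8133 to 8800 with shLITATS1-2 against shNT and 8772 to 9670 between the hairpins, and members called numbered 4 higher and 3 lower, 5 to 6 higher and 3 lower, and 5 to 6 higher and 3 lower. With the replicate number as a block, 9295, 8630 and 9264 genes passed, and the counts of members were as reported. Correlations of same-numbered libraries' deviations ran from -0.176 to 0.0801, and none was over 0.1. With the longest transcript as length, the CCND1 share of D cyclin TPM was 44.8%, 53.1% and 30.7% with shLITATS1-1, shLITATS1-2 and shNT, the CDK6 share of the kinases 15.7%, 13.5% and 6.15%, and the Cip/Kip to D cyclin ratio 0.569, 0.816 and 0.308. Library size alone moved 15 of 30 mean CPM values by more than 1 SD. CDKN1C was not kept by the filter of 50 counts. Depth limits CCND2 and CDKN1C, at most 29 fragments per library.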

Other observations

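Of the 8 tested neighbours of CDKN1C in its imprinted domain, 3 were higher, 3 lower and 2 did not pass with shLITATS1-1 (median log2 fold change -0.03), and 4 were higher, 1 lower and 3 did not pass with shLITATS1-2 (median 0.11), by the quasi-likelihood test of edgeR with Benjamini and Hochberg's adjustment. Over all tested genes 30.5% were higher and 30.5% lower with shLITATS1-1, and 27.8% higher and 28.9% lower with shLITATS1-2. The counts are thus not a result about these neighbours. KCNQ1, a potassium channel gene and 1 of the 3 that were higher with shLITATS1-1, had 12, 11 and 13 fragments with shLITATS1-1 and 9, 2 and 3 with shLITATS1-2, against 4, 8 and 7 with shNT. It passed the filter on low counts through the shLITATS1-1 libraries, and with library size alone it did not pass the test. PHLDA2, an imprinted gene known for limiting placental growth, had -0.10 with shLITATS1-1 (adjusted p = 0.213) and rose by 0.61 with shLITATS1-2 (adjusted p = 2.44e-11), and the hairpins differed by -0.72 (adjusted p = 3.97e-13). KCNQ1OT1, the noncoding RNA of the imprinting centre, had 0.04 with shLITATS1-1 and -0.17 with shLITATS1-2, neither past the test.

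Among 16 tested atypical cyclins, kinases and partners of CDK inhibitors, 4 were higher and 7 lower with shLITATS1-1, and 7 were higher and 2 lower with shLITATS1-2. With library size alone 11 were higher with shLITATS1-2. The main test called 30.5% of all genes higher and 30.5% lower with shLITATS1-1, and 27.8% higher and 28.9% lower with shLITATS1-2. CABLES1, a CDK-binding adaptor, fell by 0.47 with shLITATS1-1 and rose by 0.48 with shLITATS1-2, with a difference between the hairpins of -0.95 (adjusted p = 1.45e-16). CCNG1, which encodes cyclin G1, fell by 0.21 with shLITATS1-1 and rose by 0.15 with shLITATS1-2. PCNA, the polymerase clamp that p21 binds, fell by 0.44 with shLITATS1-1 and by 0.56 with shLITATS1-2. CCND1P1, also listed, was not analysed here.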
